A study of Mus musculus with 6 samples.

Results

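Dlg, Shank and Homer are the scaffold families that form the core of the postsynaptic density, the protein layer beneath the membrane of excitatory synapses. The 10 genes Dlg1, Dlg2, Dlg3, Dlg4, Shank1, Shank2, Shank3, Homer1, Homer2 and Homer3 were followed here through every array probe that carries their name. They have 32 of the 56605 probes on the array that are not controls, and 10 of its 37074 gene names. Probes were tested if at least 3 of the 6 arrays, of either group, flagged them as well above background, as 31 member probes did.

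RNA came from primary cultures of cerebral cortex of C57/B6 mice at embryonic day 16, grown in Neurobasal medium with B27 plus. The labels call 3 samples control cultures. The other 3 were irradiated at 3.1 THz, a frequency between microwaves and infrared light, for 3 h daily, beginning on day 5 and ending on day 9 in vitro. Both groups were collected at day 12, and each sample has 1 single-colour Agilent array. The labels do not say whether the cultures of a group came from separate dissections, so the spread between them may be partly technical, and p-values measure only that spread.

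Proteins of the Dlg family, which include SAP97 (Dlg1), PSD-93 (Dlg2), SAP102 (Dlg3) and PSD-95 (Dlg4), hold NMDA receptors, AMPA receptor auxiliary proteins and adhesion molecules through their PDZ domains. Shank proteins form a deeper layer, tied to the Dlg family through the Dlgap (GKAP) proteins. Homer proteins bind Shank, group I metabotropic glutamate receptors and inositol trisphosphate receptors through an EVH1 domain. The long forms of Homer1 cross-link these partners, while a short form, Homer1a, is induced by neuronal activity and lacks the part that makes the cross-links.

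Each probe is a 60-base oligonucleotide, and several probes of a gene read different stretches of its transcripts. Probes whose genomic span exceeds 60 bases cross at least 1 exon junction, so they read spliced RNA, and 8 member probes, of Dlg1, Dlg2, Dlg4 and Shank3, are of this kind. The sequences below are shown because they tell which coding stretches were read and where Dlg2 and Dlg4 resemble each other. They hold only some of the 8 junction probes, and the Dlg2 probe among them spans 60 bases and is not one. The capitals mark TCAGGTCTGGGNTTCA, the longest run of letters, with at most 1 mismatch (N), that probes of different member genes share. It is 16 letters long, the next longest such run has 12, and of all 56605 probes (both strands searched) only these 2 hold it (0.00353%). PDZ domains have also been called GLGF repeats, after the loop that holds the end of their ligands. Sequences are given as deposited, 5′ to 3′, with positions on build mm9.
Dlg4, chr11:69844125-69844685: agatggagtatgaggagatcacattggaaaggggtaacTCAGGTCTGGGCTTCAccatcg
Dlg4, chr11:69853342-69854879: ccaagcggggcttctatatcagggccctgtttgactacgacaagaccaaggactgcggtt
Dlg2, chr7:99020888-99020947: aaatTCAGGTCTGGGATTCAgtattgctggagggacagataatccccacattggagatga
Shank3, chr15:89355661-89361789: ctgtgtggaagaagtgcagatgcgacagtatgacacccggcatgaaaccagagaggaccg

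Homer1 has 4 probes, which the array's annotation names after 4 transcripts, and the first 30 bases of each are shown because they read different parts of the gene. They lie in order along the plus strand of chromosome 13. The first probe is annotated to transcript variant S, the short form, and probe 4 to variant L, a long form. Whether the first probe reads only the short form was not checked, since no transcript sequences were used here. It may read long forms as well, so its signal is not read as the level of Homer1a.
Homer1 probe 1, chr13:94116595-94116654: tgatagccgggcaaacactgtttatggact
Homer1 probe 2, chr13:94129858-94129917: tcattagaccctaatagaccaagttatatg
Homer1 probe 3, chr13:94173265-94173324: tcaaacttcacaaggctatattttgaactg
Homer1 probe 4, chr13:94174815-94174874: caggggtcagtcccatctgtgtataagtta

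A single slide and a single scan date covered the 6 arrays, so neither could be tested as a batch. The 3 controls and irradiated 1 lay in row 1 of the slide, and irradiated 2 and 3 in row 2. Position thus overlaps in part with group, and its part in the results was not tested. No spot was saturated. The 75th percentile of the scanner's processed signal was 320, 465 and 708 on controls 1, 2 and 3. On irradiated 1, 2 and 3 it was 841, 892 and 635. Spots well above background made up 64.9, 69.9 and 72.6% on controls and 74.7, 73.8 and 72.9% on irradiated arrays. Array brightness thus overlaps in part with group, and its part in the results was not tested. The labels call the cells a neuron culture. The mean log2 level of 6 neuronal markers, all measured, was 5.72, 5.75 and 5.82 on control arrays and 5.25, 5.41 and 5.82 on irradiated ones, so irradiated 1 and 2 lay below every control. The mean of 5 inhibitory neuron markers did not overlap between groups, at 3.04 to 3.14 in controls and 2.78 to 3.00 in irradiated cultures. That of 5 excitatory neuron markers did, at 1.84 to 2.56 and 1.84 to 2.47. None of these markers passed the adjusted threshold or had an unadjusted p under 0.05, and their part in the results below was not tested. Their direction moved with the scaling. The median difference, irradiated minus control, was -0.31 for neuronal, -0.26 for inhibitory and -0.091 for excitatory neuron markers. After quantile normalisation it was 0.082, 0.048 and 0.035. Markers of other cells were measured too. The mean of 6 astrocyte markers stood at 3.95, 2.98 and 2.57 on controls 1, 2 and 3, and at 3.90, 2.97 and 2.43 on irradiated 1, 2 and 3. In the same order, the mean of 7 microglial markers was 0.87, -0.92 and -1.41 in controls and 1.38, -0.71 and -1.20 in irradiated cultures. That of 8 oligodendrocyte lineage markers was 3.10, 0.57 and 1.41 in controls and 2.67, 0.54 and 1.33 in irradiated cultures. In each of these lists the array numbered 1 was the highest of both groups.

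Levels below are log2 of the processed signal minus the array's own 75th percentile, so 0 means a signal equal to that percentile. Levels are compared only within a probe, since probes differ in brightness. Differences are irradiated minus control, from limma fitted across all 40552 kept probes with Benjamini-Hochberg adjustment over them. In bulk cultures, fewer cells of a type and less RNA per cell cannot be told apart.

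No member probe differed between irradiated and control cultures at an adjusted p under 0.05, the background share among all kept probes being 0%. The smallest adjusted p of a member probe was 0.520, which was also the smallest of any probe. At an unadjusted p under 0.05 there was 1 of 31 member probes, against a background of 9.02% of all kept probes, and 4.02% for those higher in irradiated cultures, as this one was. The 95% interval of the difference included 0 for 30 of the 31 probes. In all 31 probes the range among the 3 arrays of one group or the other was larger than the difference between the groups. Groups did not overlap in 4 member probes, against a background of 15.5%. The irradiated arrays were higher in 2 of these (background 5.77%) and lower in the other 2 (background 9.71%). The median difference over the member probes was -0.05, and over all kept probes it was also -0.05.

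**Figure D1:**
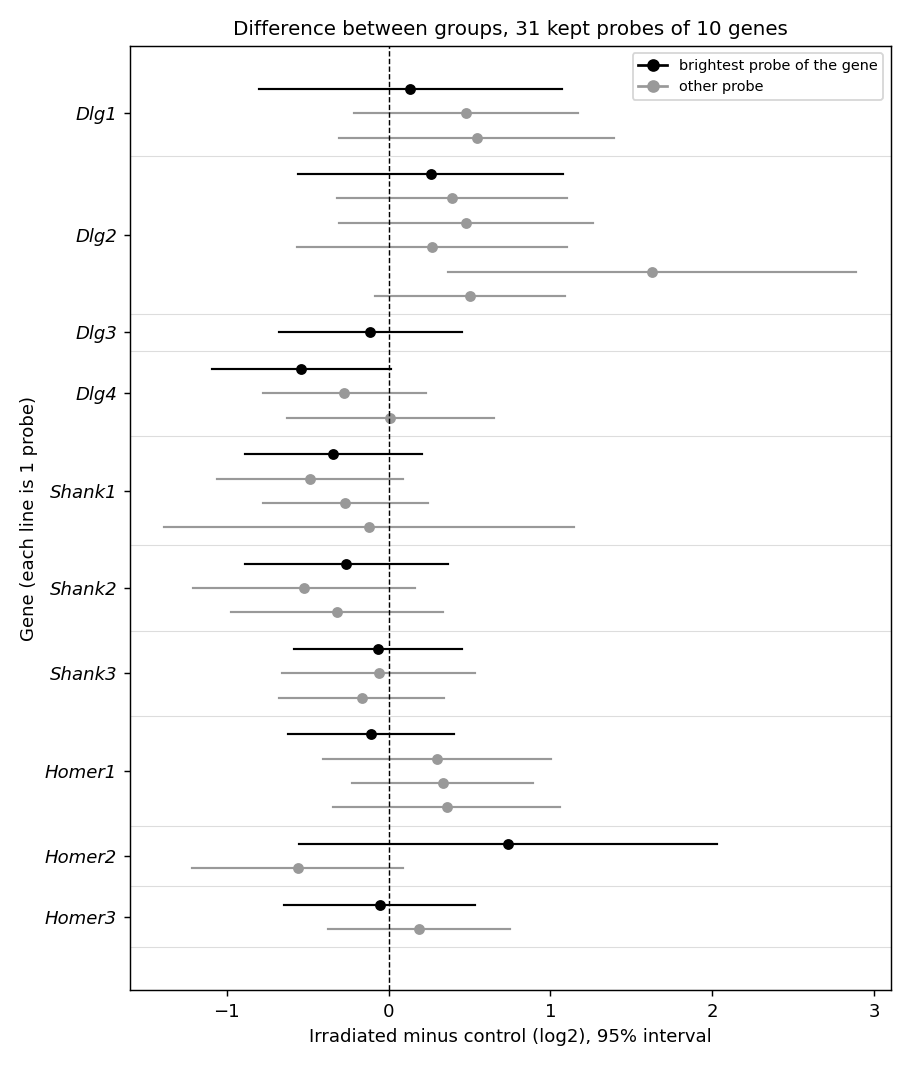
Difference between groups for the 31 kept probes of the 10 genes, on the log2 scale, with horizontal lines for the 95% interval from limma and black for the brightest probe of a gene. All 10 Shank probes lie below 0 and all 9 probes of Dlg1 and Dlg2 above it, and only 1 interval, of a Dlg2 probe, leaves out 0.

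Among the Dlg genes, those of PSD-95 and its close relatives did not share a direction. All 3 probes of Dlg1 and all 6 of Dlg2 had differences above 0, the 1 probe of Dlg3 lay below 0, and the 3 kept probes of Dlg4 ranged from -0.54 to 0.010. Over the 13 Dlg probes the median was 0.27. None of these differences passed the adjusted threshold.

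Dlg4 encodes PSD-95, the most abundant scaffold of mature excitatory synapses. Its brightest probe, at chr11:69858757-69858816, measured 3.25, 2.67 and 2.64 in controls 1, 2 and 3, and 2.31, 2.24 and 2.40 in irradiated 1, 2 and 3, the order used throughout. The groups did not overlap, the irradiated arrays lay close together, and control 1 was the highest. Control 1 also had the lowest 75th percentile of all arrays (320), and irradiated 2, the lowest on this probe, had the highest (892). The control mean was 2.86 ± 0.34 and the irradiated mean 2.32 ± 0.08 (SD, n = 3 each). The difference was -0.54 (standard error 0.24, 95% interval -1.09 to 0.014, adjusted p 0.520). Without control 1 the difference was -0.34.

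The other probes of Dlg4 gave smaller differences. The junction probe that carries the capital letters above measured -1.67, -1.65 and -1.25 in controls and -1.87, -1.86 and -1.66 in irradiated cultures. Irradiated 1 and 2 lay below every control and irradiated 3 just inside their range, and the difference was -0.27 (interval -0.78 to 0.23). The second junction probe measured -2.0, -1.63 and -1.09 in controls and -1.65, -1.39 and -1.65 in irradiated cultures, a difference of 0.010 (interval -0.63 to 0.65). A test of whether the 3 probes differed from each other in their response gave an adjusted p of 0.754 over 9028 genes with at least 2 kept probes, and 0 of those genes passed it (8.47% at unadjusted p under 0.05). Another probe, assigned to ENSMUST00000108586, stood well above background on none of the arrays.

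Dlg1 encodes SAP97, a relative of PSD-95 that takes part in the delivery of AMPA receptors. Its brightest probe measured 0.55, -0.67 and -0.10 in controls and 0.66, 0.02 and -0.49 in irradiated cultures. The highest value of each group was that of the array numbered 1, and the groups overlapped widely. The difference was 0.13 (interval -0.80 to 1.07). It was -0.16 without control 2 and -0.16 without irradiated 1, so the choice of arrays set its sign. The other probes of Dlg1 differed by 0.48 and 0.54, with intervals that included 0.

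Dlg2 encodes PSD-93, and its 6 probes spread over its long locus on chromosome 7. The brightest measured 2.19, 1.76 and 2.52 in controls and 1.75, 2.84 and 2.66 in irradiated cultures, a difference of 0.26 (interval -0.56 to 1.08). The lowest values of the groups were nearly equal, so they overlapped. Leaving out irradiated 2 gave a difference of 0.048, control 2 one of 0.063, irradiated 3 one of 0.14, control 3 one of 0.44 and irradiated 1 one of 0.59. The probe with the capital letters differed by 0.48 (interval -0.31 to 1.26): control 1 read -1.20, and the other controls, at -0.42 and 0.06, overlapped the irradiated values of 0.07, 0.04 and -0.25.

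A single Dlg2 probe was the 1 member probe with an unadjusted p under 0.05. It lies at chr7:99436673-99436732 and is assigned to ENSMUST00000129818 and a full-length cDNA clone, not to a reference messenger RNA. The first 30 of its bases identify it.
Dlg2, chr7:99436673-99436732: catggaaggaaatgtggagaactaccttag
It measured -4.65, -2.30 and -3.15 in controls and -1.66, -1.70 and -1.86 in irradiated cultures. The groups did not overlap, and control 1 was far below the rest. Before scaling the signal was only 12.7 on control 1, against 94.1 and 79.9 on controls 2 and 3. On irradiated 1, 2 and 3 it was 265.9, 274.7 and 175.4. The difference was 1.63 (standard error 0.54, interval 0.37 to 2.89), or 3.09-fold, with an unadjusted p of 0.0181 and an adjusted p of 0.520. It was 0.99 without control 1, 2.16 without control 2, and between these without any other single array. It was 0.66 with normexp correction. Against the other probes of Dlg2 it gave an unadjusted p of 0.0099 and an adjusted p of 0.570 over all probes of genes with at least 2. The gene as a whole did not pass that test (adjusted p 0.681).

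A further Dlg2 probe, assigned to the predicted transcript XM_006507768, also had groups that did not overlap. It measured -3.86, -3.32 and -3.14 in controls and -3.04, -2.77 and -3.02 in irradiated cultures. The difference was 0.50 (interval -0.086 to 1.09, adjusted p 0.520), and with normexp background correction it was -0.044. The remaining probes of Dlg2 differed by 0.39 and 0.27, with intervals from -0.32 to 1.1 and from -0.57 to 1.1.

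Dlg3 encodes SAP102, the family member most used by young synapses, and has 1 probe, on chromosome X. It measured 4.95, 5.28 and 5.54 in controls and 4.91, 5.16 and 5.36 in irradiated cultures. The groups overlapped, and within both the array numbered 1 was lowest and that numbered 3 highest. The difference was -0.11 (interval -0.68 to 0.45), and it was 0.14 after quantile normalisation.

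**Figure D2:**
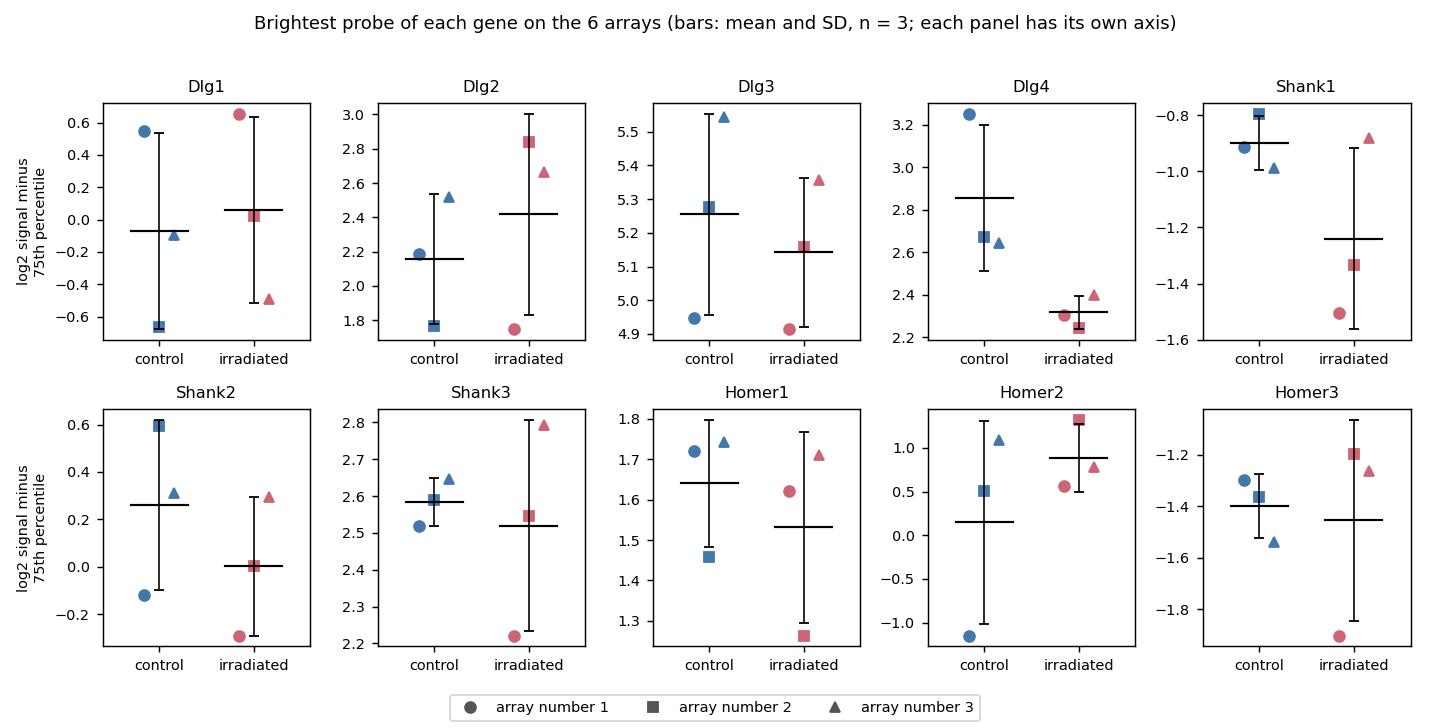
Level of the brightest probe of each gene on every array, as log2 signal minus the array's 75th percentile, with the mean and SD of 3 arrays per group and a marker shape for the array number. The groups are separate for Dlg4, with controls at 2.64 to 3.25 and irradiated cultures at 2.24 to 2.40, and overlap for the other 9 genes.

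The Shank probes lay on one side. All 10 kept probes of Shank1, Shank2 and Shank3 had differences below 0, from -0.52 to -0.060 with a median of -0.26, while 55.9% of all kept probes lay below 0. None passed the adjusted threshold (smallest adjusted p 0.521), and the 10 probes read 3 genes, so they are not independent. The count was 9 of 10 after quantile normalisation, in the authors' deposited log2 table and with normexp correction, where the brightest probe of Shank3 stood above 0. It was 8 to 10 with 1 array left out and 9 without both arrays numbered 1. The count was chosen after the values were seen. So was that of Dlg1 and Dlg2, whose 9 probes all lay above 0, as did 17878 of all 40552 kept probes. It became 8 with normexp correction and 8 or 9 with 1 array left out.

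Shank1 encodes a scaffold of dendritic spine heads. Its brightest probe measured -0.91, -0.79 and -0.99 in controls and -1.51, -1.33 and -0.88 in irradiated cultures. Irradiated 1 and 2 lay below every control, and irradiated 3 lay among the controls. The difference was -0.34 (interval -0.88 to 0.20). A neighbouring probe, at chr7:51612669-51612728, measured -1.43, -1.40 and -1.29 in controls and -2.17, -1.96 and -1.44 in irradiated cultures. Here the groups did not overlap, though irradiated 3 and control 1 nearly met, and the difference was -0.49 (interval -1.06 to 0.087, adjusted p 0.521). The third probe differed by -0.27, and the dimmest, well above background on 4 of the 6 arrays, by -0.12 (interval -1.38 to 1.15).

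Shank2 encodes a scaffold of the same layer. Its brightest probe measured -0.12, 0.59 and 0.31 in controls and -0.29, 0.00 and 0.29 in irradiated cultures. The groups overlapped, and the array numbered 1 was the lowest of each. The difference was -0.26 (interval -0.89 to 0.37). Leaving out control 2 gave -0.095, irradiated 1 gave -0.11, irradiated 3 gave -0.41 and control 1 gave -0.45. The probe at chr7:151608430-151608489 measured 0.32, -0.01 and -0.16 in controls and -0.89, -0.59 and 0.06 in irradiated cultures, a difference of -0.52 (interval -1.21 to 0.16, adjusted p 0.535). On this probe control 1 was the highest of all and irradiated 1 the lowest, while irradiated 3 lay among the controls. The third probe differed by -0.32.

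Shank3, the gene deleted or mutated in Phelan-McDermid syndrome, had the smallest difference of the family on the brightest probe. Its brightest probe measured 2.52, 2.59 and 2.65 in controls and 2.22, 2.55 and 2.79 in irradiated cultures. The 3 controls lay close together and inside the range of the irradiated arrays. The difference was -0.064 (interval -0.58 to 0.45), 0.069 after quantile normalisation and 0.0036 with normexp correction. The other probes of Shank3, both across exon junctions, differed by -0.060 and -0.17.

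Homer1 was read at 4 points, and 3 of its 4 probes had differences above 0. Probe 1 measured -0.55, -0.79 and -0.24 in controls and 0.07, -0.27 and -0.38 in irradiated cultures. Irradiated 1 was the highest and the groups overlapped, with a difference of 0.34 (interval -0.22 to 0.89, adjusted p 0.603). Probe 2 differed by 0.36 (interval -0.34 to 1.06) and probe 3 by 0.30 (interval -0.41 to 1.0). Probe 4, the brightest, measured 1.72, 1.46 and 1.74 in controls and 1.62, 1.26 and 1.71 in irradiated cultures. In both groups the array numbered 2 was lowest, and the difference was -0.11 (interval -0.62 to 0.40).

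Within an array, probe 1 relative to probe 4 of Homer1 can be compared without any scaling between arrays. This log2 ratio was -2.27, -2.25 and -1.99 in controls and -1.55, -1.53 and -2.09 in irradiated cultures. Irradiated 1 and 2 stood above every control, and irradiated 3 among them. The means were -2.17 ± 0.16 and -1.73 ± 0.32 (SD, n = 3 each). The test of whether the 4 probes of Homer1 responded unlike each other gave an adjusted p of 0.906. The difference in the ratio is thus a description that no test called. Over the 6 arrays the ratio rose in the same order as the array's 75th percentile, from control 1 (320) to irradiated 2 (892). The part of array brightness in the ratio was not tested.

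**Figure D3:**
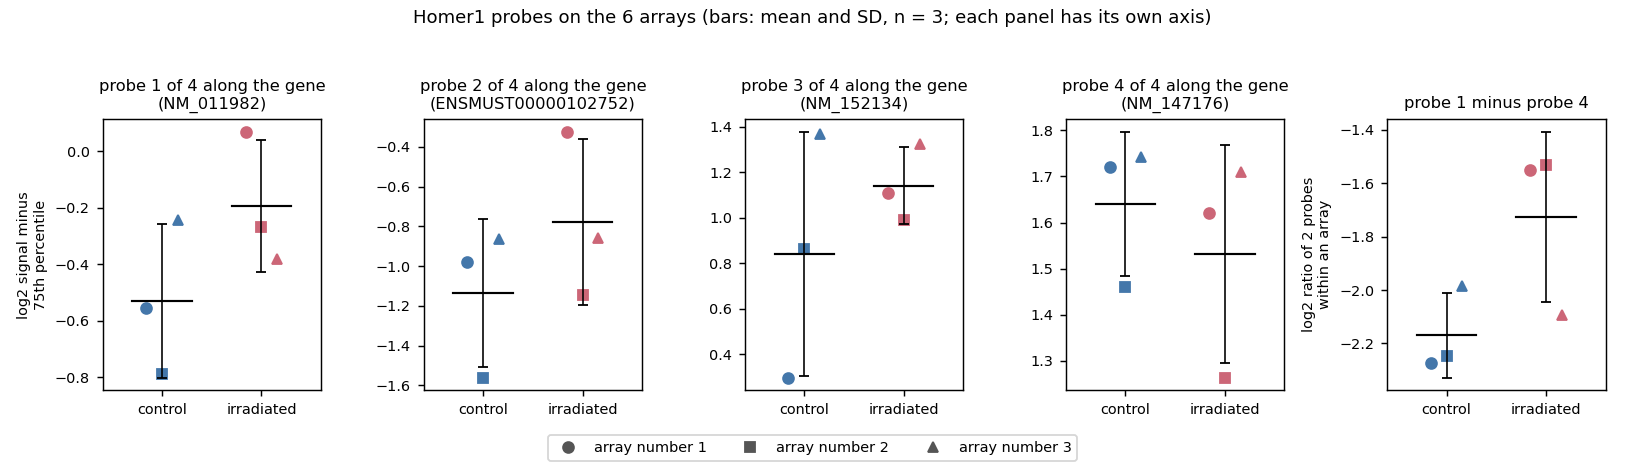
The 4 Homer1 probes in their order along the gene, as log2 signal minus the array's 75th percentile, and the log2 ratio of probe 1 to probe 4 within each array, with the mean and SD of 3 arrays per group. Probes 1 to 3 have higher means in irradiated cultures, probe 4 a lower one, and the groups overlap in every panel.

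Immediate early genes, which neurons switch on when they fire, are given beside Homer1 because Homer1a belongs to that class. The mean level of 12 such genes was 1.84, 0.45 and 1.12 in controls and 1.58, 0.13 and 1.08 in irradiated cultures, so the arrays numbered 2 were lowest in both groups. None of the 12 passed the adjusted threshold, 4 had differences above 0 and 8 below, and their median was -0.14. Nr4a3, a nuclear receptor of the Nr4a family, differed by -0.74 (adjusted p 0.520), Junb, a partner of Fos, by -0.49, and Egr2, a zinc finger factor, by 0.28. The 3 probes of Nr4a3 ranged from -0.74 to 0.24 and the 2 of Junb from -0.49 to 0.11. After quantile normalisation the median of the list was -0.038.

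Homer2, like Homer3, encodes a cross-linking scaffold with an EVH1 domain. Among the brightest probes it gave the widest spread in controls. Its brightest probe measured -1.15, 0.51 and 1.09 in controls and 0.57, 1.32 and 0.78 in irradiated cultures. Control 1 stood far below the others, and the groups overlapped. The means were 0.15 ± 1.16 and 0.89 ± 0.39, and the difference was 0.74 (standard error 0.55, interval -0.55 to 2.03, adjusted p 0.621). Without control 1 it was 0.090. The second probe, assigned to the cDNA clone AK163423, measured -0.01, -0.42 and -0.95 in controls and -1.20, -0.93 and -0.92 in irradiated cultures. On this probe control 1 was the highest array, and the difference was -0.56 (interval -1.21 to 0.091). The test between both probes of Homer2 gave an adjusted p of 0.597.

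Homer3 has 2 kept probes. The brightest measured -1.30, -1.36 and -1.54 in controls and -1.90, -1.20 and -1.27 in irradiated cultures, and irradiated 1 alone lay below the controls. The difference was -0.055 (interval -0.64 to 0.53). The second, assigned to the clone AK155463, which the array's annotation describes as unclassifiable, differed by 0.19 (interval -0.38 to 0.75).

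Across the 6 arrays the members did not move as one. Over these arrays, which share their controls and their scaling, the brightest probes of Shank1, Shank2 and Shank3 correlated with each other at Pearson's r of 0.76, 0.76 and 0.72. Pairs across families reached similar values: Dlg3 with Shank2 (r = 0.79), Dlg3 with Shank3 (0.77) and Shank3 with Homer3 (0.74). Shank2 and Dlg1 ran opposite ways (r = -0.95), as did Dlg4 and Homer2 (r = -0.87). Dlg1 was highest on the arrays numbered 1, where the glial markers above were highest too, and Shank2 was lowest there; the part of glial RNA in this was not tested. Among 16034 named genes, the 3 most like Dlg4 were Ifna14, Ankub1 and Vmn1r47 (r = 0.999, 0.999 and 0.997). Those most like Shank3 were Dnd1, Stag1 and Pwwp2a (r = 0.998, 0.992 and 0.989), and those most like Homer1 were Kdm5c, Camkk2 and Ppapdc2 (r = 0.993, 0.993 and 0.988). These values are a description over 6 arrays, each the highest of many.

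Proteins that bind the scaffolds were read from lists of 20 genes each, 1 probe per gene. Of 20 partners such as the Dlgap proteins, 0 passed the adjusted threshold, 5 had differences above 0 and 15 below, with a median of -0.15. Over all 26157 genes read in this way, 65.8% lay below 0 and the median was -0.13, and 8.83% had an unadjusted p under 0.05, against 0 of the 20 partners. Lrrc7, which encodes the spine protein densin-180, differed by 0.50, Nos1, the neuronal nitric oxide synthase held by PSD-95, by -0.53, and Dlgap3 by -0.47, with adjusted p of 0.529, 0.544 and 0.549. Dlgap1, which links PSD-95 to Shank, differed by -0.0042 on the probe used here. The 6 probes of Dlgap1 ranged from -0.042 to 1.69. The 2 of Lrrc7 ranged from 0.50 to 1.603 and the 2 of Nos1 from -0.56 to -0.53. After quantile normalisation the median of the list was 0.027.

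Of 20 receptors, channels and adhesion proteins that the scaffolds hold, 0 passed, 8 had differences above 0 and 12 below, with a median of -0.092 (0.047 after quantile normalisation). Nlgn3, a neuroligin, measured 3.71, 3.58 and 3.51 in controls and 2.80, 3.16 and 3.51 in irradiated cultures. Its groups did not overlap, though control 3 and irradiated 3 read 3.51 alike, and the difference was -0.44 (adjusted p 0.527). Grin1, the obligatory subunit of NMDA receptors, differed by -0.61 and Nlgn2, the neuroligin of inhibitory synapses, by -0.41. Grin2b, the NMDA receptor subunit that binds PSD-95 and SAP102, differed by -0.25, and Grm5, a metabotropic receptor bound by Homer, by -0.10. The 3 probes of Grin1 ranged from -0.61 to 0.76, those of Grin2b from -0.25 to 0.49 and those of Grm5 from -0.23 to 0.66.

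Scaffolds of other PDZ families gave 0 calls among 20 genes, with 13 above 0 and 7 below and a median of 0.029 (0.13 after quantile normalisation). Mpp3, a guanylate kinase scaffold, differed by -0.29 (adjusted p 0.584), and Pick1, which binds AMPA receptors, by 0.30 (adjusted p 0.597). The 4 probes of Mpp3 ranged from -0.29 to 0.22 and the 2 of Pick1 from 0.30 to 0.66.

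The direction of small differences moved with the scaling and with the arrays used. With normexp background correction the median over all kept probes was -0.20, against -0.05 as reported, and 73.7% of them lay below 0, against 55.9%. Relative to the median of all kept probes, the brightest probe of Dlg4 differed by -0.49 as reported, -0.28 with normexp correction, -0.41 after quantile normalisation and -0.27 without control 1. Its difference before that subtraction was -0.48 with normexp correction, -0.41 after quantile normalisation and -0.41 in the deposited log2 table, and it lay from -0.64 to -0.34 with 1 array left out. The mean of the 3 kept Dlg4 probes differed by -0.27. For Shank1 and Shank2 the brightest probe also lay below 0 under each alternative run, and for Dlg2 and Homer2 above 0. With normexp correction Shank1 and Shank2 differed by -0.33 and -0.23, so Shank2 lay close to the median of -0.20 over all kept probes. For Dlg1, Dlg3, Shank3, Homer1 and Homer3 the sign turned under at least 1 of them.

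**Figure D4:**
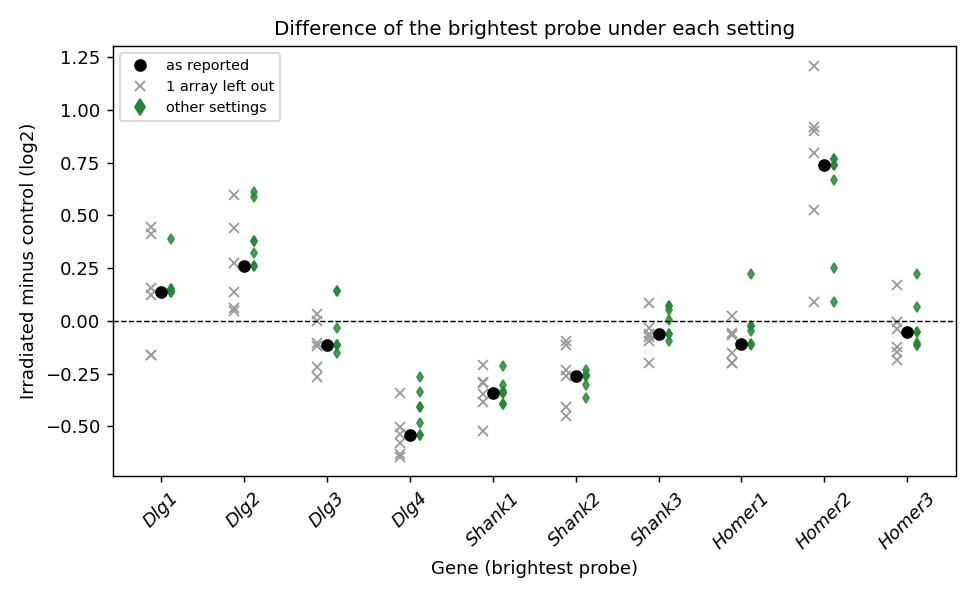
Difference between groups (log2) of the brightest probe of each gene as reported (black), with each of the 6 arrays left out (grey crosses) and under the other settings (green). The green points include the mean of all kept probes of a gene. Dlg4 lies between -0.64 and -0.27, the latter for that mean, while Homer2 ranges from 0.089, also for that mean, to 1.21.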

How the data were processed

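RNA of 3 control and 3 irradiated cultures was measured on 6 single-colour Agilent arrays (1 design, Cy3 label, 0.2 µg RNA). The authors deposited linear spot intensity values (Agilent Feature Extraction 10.7.1.1, as the submitters' processing notes name it). Per the file headers, spatial and multiplicative detrending were on, global background correction was off, and positions are on build mm9. They also deposited a log2 table of the same arrays; from its values it is quantile normalised and not centred per gene (column medians 5.91, rank correlation with the scanner signal at least 0.997), and the sources used here do not give its tool.

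Spots marked as outliers were dropped, the processed intensity of the rest was turned into log2 values, and spots with the same probe were averaged. From each array the 75th percentile of its 56605 probes other than controls was then taken away. Of these, 10 probes lacked an unmarked spot on some array and 40552 were kept. The group difference was fitted in limma 3.58.1 under R 4.3.3 (lmFit and eBayes, without covariates). Differences between probes of one gene were fitted with diffSplice. Both fits were also run on simulated arrays with independent noise, its spread capped at the median over probes. That run does not cover noisier probes or arrays that deviate together. The number of arrays limits the precision.

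Genes were matched by the gene name in the scanner files. All 32 member probes are accounted for. Named genes of other lists are the 3 with the smallest unadjusted p in each, plus Grin1, Grin2b, Grm5 and Dlgap1; some genes that this rule names are not reported here. For likeness, the 3 named genes of highest r were taken. The members and lists were chosen with earlier results of these data known. Alternatives were normexp correction (offset 50), quantile normalisation, the deposited table, no filter on dim probes, the replicate number as a block, the mean of a gene's probes, each array left out, and both arrays numbered 1 left out. Counts of Shank probes and of Dlg1 and Dlg2 probes by sign were added after the data were seen.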

Additional observations from a re-analysis of the deposited data

How the results depend on the processing

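The count of all probes past the adjusted threshold was 0 as reported, 4 after quantile normalisation and 4 in the authors' deposited log2 table, none of them a member probe, and 0 under the other alternatives run. Member probes past it numbered 0 throughout. Member probes at unadjusted p under 0.05 numbered 1 as reported, 5 with normexp correction (background 16.9%) and 1 to 5 with 1 array left out. They numbered 2 without control 1 (background 5.61%), 2 without control 2 (10.4%), 5 without control 3 (15.7%) and 4 without irradiated 3 (9.56%). Member probes whose groups did not overlap numbered 4 as reported, 8 with normexp correction (background 14.0%), 3 after quantile normalisation and 3 in the deposited table (14.7% each). Genes whose probes responded unlike each other numbered 1 in the deposited table, 1 without the filter on dim probes and 0 to 22 with 1 array left out (2 without control 1 and 22 without control 2), none of them a member.

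Of the brightest probes, Dlg3 differed by 0.14 after quantile normalisation and in the deposited table, and by -0.27 to 0.031 with 1 array left out. Shank3 differed by 0.0036 with normexp correction, 0.069 after quantile normalisation and in the deposited table, 0.052 without both arrays numbered 1, and -0.20 to 0.085 with 1 array left out. Homer3 differed by 0.22 without both arrays numbered 1, 0.065 as the mean of its probes, and -0.18 to 0.17 with 1 array left out. Homer1 differed by 0.22 as the mean of its probes and -0.20 to 0.025 with 1 array left out, and Dlg1 by -0.16 to 0.44. The cause was not tested.

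Same-numbered arrays deviated together from their group means with correlations of 0.46, 0.33 and 0.086 over probes (0.53, 0.42 and 0.22 over 1 probe per gene), so a limit of 0.1 for every pair was missed over probes and met over genes. The means of the astrocyte, microglial and oligodendrocyte lineage markers ranked the array numbers alike in both groups. The labels name no shared source, and whether the numbers pair the arrays is not settled. With the replicate number as a block, 0 probes passed the adjusted threshold (smallest adjusted p 0.495) and 1 member probe had an unadjusted p under 0.05 (background 8.58%), so the block changed no call.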
